A study of Mus musculus with 12 samples.

Results

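The keratins of the prostate epithelium were examined as 10 genes chosen by symbol, Krt8, Krt18, Krt19, Krt7 and Krt4 of luminal cells, Krt5, Krt14, Krt15 and Krt17 of basal cells, and Krt13 of suprabasal layers. Each matched 1 Ensembl gene ID, giving 10 of the 39179 genes in the deposited table. RNA came from prostate tissue of mice aged 4 months, whose strain was a hybrid of 129/SvImJ and C57Bl/6J. The libraries analysed were 6 from mice null for the gene under study (-/-) and 6 from wild-type mice (+/+), and all mice had been given the herbicide paraquat, which raises oxidative stress. No untreated libraries were analysed here, so each comparison is between genotypes under paraquat. The labels give no dose, promoter or cell type for the deletion and do not say whether each library came from a separate animal.

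Keratins are the intermediate filament proteins of epithelial cells. They assemble only as pairs of an acidic type I chain (here Krt18, Krt19, Krt13, Krt14, Krt15 and Krt17) and a basic type II chain (here Krt8, Krt7, Krt4 and Krt5). In the prostate the secretory luminal cells are known for Krt8 with Krt18, and the basal cells that lie on the basement membrane for Krt5 with Krt14. Krt4, Krt7 and Krt19 are known from luminal cells near the urethra as well as from other ductal epithelia.

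The partners Krt8 and Krt18 are neighbours on GRCm38 chromosome 15, and Krt5 lies in the same type II gene cluster. Krt18 is the exception there, a type I gene beside the type II cluster, while the other type I genes examined lie on chromosome 11. Sequence before the start of these 3 genes is shown because Krt18 and Krt8, made as partners, and Krt5, the basal counterpart of Krt8, are the genes whose levels are set against each other within libraries. Windows of 250 bases before the RefSeq start (GRCm38.p6) were matched for 6 of the 10 keratins, and only bases outside the annotated gene are printed. These are chr15:102027966-102028179 on the plus strand for Krt18 (214 bases), chr15:102004483-102004592 on the minus strand for Krt8 (110 bases) and chr15:101712906-101713155 on the minus strand for Krt5 (250 bases). Capitals mark matches to the E-box CACCTG or its reverse complement CAGGTG, and to the TATA-like ATAAAA.
Krt18: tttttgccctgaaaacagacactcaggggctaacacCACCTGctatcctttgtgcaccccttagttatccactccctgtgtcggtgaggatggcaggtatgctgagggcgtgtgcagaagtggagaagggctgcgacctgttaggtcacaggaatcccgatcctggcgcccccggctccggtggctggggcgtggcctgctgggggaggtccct
Krt8: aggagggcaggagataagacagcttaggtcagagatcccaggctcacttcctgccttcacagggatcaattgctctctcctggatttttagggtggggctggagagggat
Krt5: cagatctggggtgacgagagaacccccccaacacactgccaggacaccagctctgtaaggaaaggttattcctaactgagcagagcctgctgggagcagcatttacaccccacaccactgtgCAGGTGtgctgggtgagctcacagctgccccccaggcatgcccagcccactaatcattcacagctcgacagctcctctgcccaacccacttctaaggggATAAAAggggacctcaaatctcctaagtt
Each full window of the 3 held 1 E-box match, that of Krt8 at 111 bases before the RefSeq start, in the stretch not printed. Of the 3, Krt5 held ATAAAA, at 29 bases before the start. On either strand, 17.2% of 32851 RefSeq windows of the same length held the E-box and 17.0% held ATAAAA. The GC box GGGCGG (32.7% of windows) and the AP-1 motif TGANTCA (6.7%) had no match in these 3 windows, and no marked matches overlapped. A match to letters is a description of the sequence.

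Depth recovered from the high values was 14.8 to 20.5 M reads per null library and 15.3 to 21.7 M reads per wild-type library. Within each genotype the libraries clustered into sets of 3, libraries 1 to 3 and libraries 4 to 6, and 2 libraries of a genotype differed by a median of 0.0776 to 0.141 over genes inside a set but by 0.274 to 0.352 across its sets. Tests are therefore given across the 12 libraries (limma, n = 6 per genotype) and across set means (limma, n = 2 per genotype), at an adjusted p of 0.05. Values are the authors' normalized log2 values, which are not per length, and differences are null minus wild type on that scale. A standard error (SE) is limma's, across libraries unless said otherwise. If the libraries of a set share an animal, p-values across libraries measure a spread that is partly technical. In bulk tissue, fewer cells of a type and less RNA per cell cannot be told apart.

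Of the 10 keratins, 9 passed the filter on low values (4 or above in no fewer than 6 libraries) and could be tested. Over the 12 libraries 6 were called higher in the null (Krt19, Krt7, Krt4, Krt5, Krt15 and Krt17) and 2 lower (Krt18 and Krt14), while Krt8 was not called. Of all 16197 genes tested, 34.1% were called higher and 31.8% lower, 65.9% in all. Over the set means limma called 0 of the 9, against 4.09% of all genes tested (2.15% higher and 1.93% lower), and at an unadjusted p under 0.05 there were 2, Krt18 and Krt4. The adjusted p of the 9 was 0.0957 for Krt18, the lowest, and 0.481 for Krt8, the highest. The median difference of the 9 was 0.57, and that of all genes tested was 0.05. The 4 set means separated the genotypes for 7 of the 9 keratins, 5 higher and 2 lower, against 67.2% of all genes tested (34.8% higher and 32.4% lower). The exceptions were Krt8 and Krt15. With libraries scaled to their totals, the calls over all genes were 8611 higher and 2608 lower, in place of 5518 and 5152. They were 6804 and 4034 without the 50 most abundant genes in the totals, and 4030 and 6078 with the transcript length trend removed. Among the 9 keratins, the sign of the difference turned with the scaling only for Krt8. Library totals moved the median of all genes to 0.37, and with them the differences of Krt19, Krt7 and Krt15 were 0.74, 0.90 and 0.93.

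**Figure D1:**
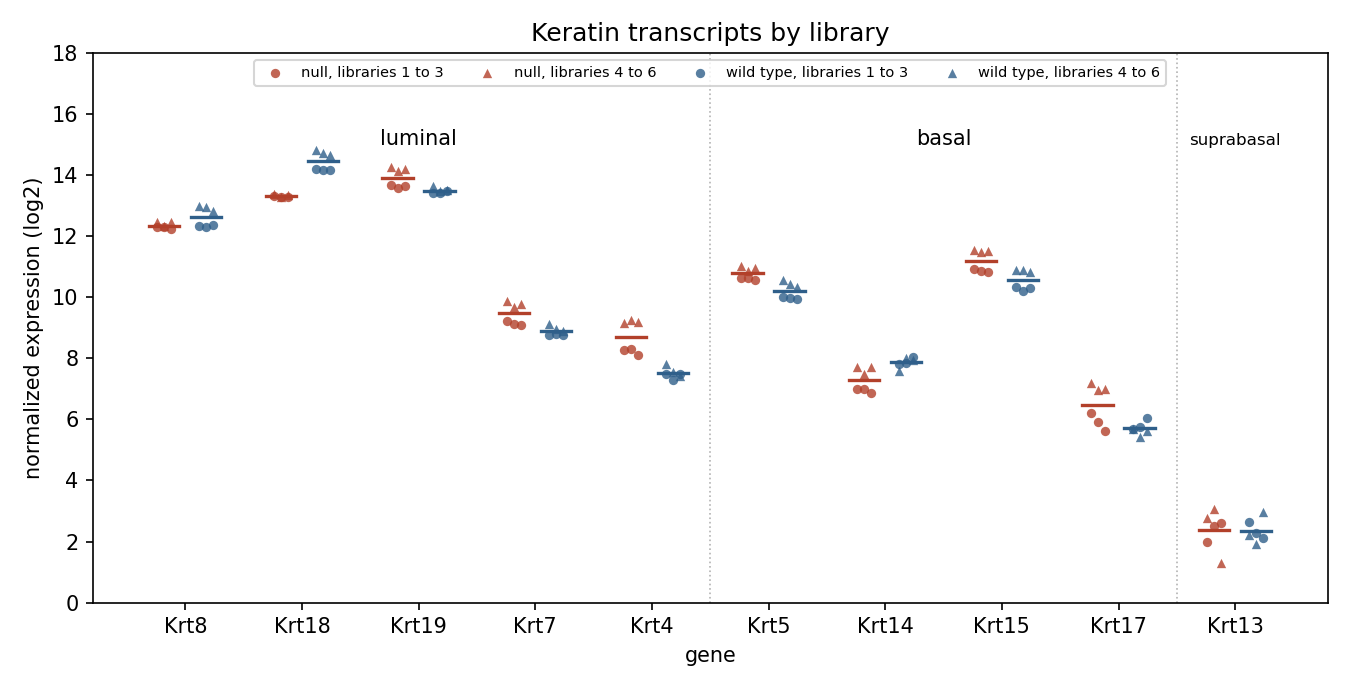
Normalized expression (log2, y axis) of each keratin (x axis) in the 6 null libraries, left in each pair, and the 6 wild-type libraries, right, with circles for libraries 1 to 3, triangles for libraries 4 to 6 and a line at the genotype mean. Krt18 and Krt4 are the 2 genes whose genotypes do not overlap, and Krt13 lies near 2 in all libraries.

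Krt18 (ENSMUSG00000023043, GRCm38 chromosome 15, 102028180 to 102032027), the type I partner of Krt8, had the most negative difference of the 9. Krt18 had a lowest value of 13.29, a median of 13.30 and a highest value of 13.37 in null libraries, against 14.16, 14.43 and 14.81 in wild-type libraries. All null libraries lay below all wild-type libraries, and the null values fell within a narrow band while the wild-type sets stood apart from each other. For Krt18 the difference was -1.13 (SE 0.12, adjusted p = 6.15e-06 across libraries and 0.0957 across set means), which is a ratio of 0.456. The set means of Krt18 were 13.30 and 13.34 in the null and 14.18 and 14.72 in wild type. Over all alternatives the Krt18 difference ran from -1.41 to -0.82, and the call across libraries was lost only where set means were the replicates. The Krt18 values are high enough to be turned back into whole reads, 9665 to 12327 reads in null libraries and 17173 to 21506 reads in wild-type libraries. The counting error of these read numbers was 0.9% to 1.02% in the null and 0.68% to 0.76% in wild type, far below the gap between the genotypes. No other annotated transcript shared a run of 100 bases with Krt18.

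Krt8 (ENSMUSG00000049382, chromosome 15, 101996698 to 102004482), the type II partner, was not called in either fit. Krt8 had a lowest value of 12.22, a median of 12.33 and a highest value of 12.46 in null libraries, against 12.30, 12.61 and 12.99 in wild-type libraries. The null libraries overlapped wild-type libraries 1 to 3 and lay below wild-type libraries 4 to 6. The Krt8 difference was -0.29 (SE 0.13, adjusted p = 0.0617 across libraries and 0.481 across set means). It was -0.58 without wild-type libraries 1 to 3 (adjusted p = 7.62e-05), -0.34 to -0.35 without any 1 of those 3 libraries (adjusted p = 0.0249 to 0.0378), and 0.002 without wild-type libraries 4 to 6. Krt8 shared 17.05% of its runs of 100 bases with other annotated transcripts, nearly all with the pseudogene Krt8-ps, and the lincRNA gene Gm36026 overlaps it on the other strand, so its value is uncertain.

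The log2 values of the 2 partners were also set against each other within each library, where scaling between libraries cancels. Krt8 minus Krt18 was -0.97 ± 0.06 in null libraries and -1.82 ± 0.03 in wild-type libraries (SD, n = 6 each). The lowest null value, -1.06, was above the highest wild-type value, -1.78, and the sets of a genotype differed little. The gap between genotypes, 0.85, was thus larger than the spread between libraries of either genotype. These within-library values are differences between genes that were chosen with their results known, and they are given with no test.

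Krt19 (ENSMUSG00000020911, chromosome 11, 100140810 to 100148665), a type I keratin of simple and ductal epithelia, stood opposite to Krt18. Krt19 had a lowest value of 13.57, a median of 13.90 and a highest value of 14.27 in null libraries, against 13.41, 13.47 and 13.63 in wild-type libraries. Null libraries 4 to 6 were above all other libraries, and null libraries 1 to 3 overlapped the upper wild-type values. The Krt19 difference was 0.43 (SE 0.13, adjusted p = 0.0105 across libraries and 0.381 across set means). It was not called across libraries without null libraries 4 to 6 (0.14, adjusted p = 0.0599), without wild-type libraries 1 to 3 (0.38, adjusted p = 0.0817) or with the set as a random block (adjusted p = 0.0676). Recovered reads of Krt19 were 12477 to 22000 in null libraries and 8134 to 12344 in wild-type libraries.

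The 2 most abundant type I keratins stood in opposite order in the genotypes. Krt19 minus Krt18 was 0.28 to 0.89 in null libraries and -1.25 to -0.70 in wild-type libraries, with means of 0.59 ± 0.29 and -0.97 ± 0.25 (SD, n = 6 each). Per kb of coding transcript, the mean level of Krt19 was 13.26 and that of Krt18 was 12.80 on the log2 scale in the null, against 12.83 for Krt19 and 13.93 for Krt18 in wild type. Of the summed level per kb of the 9 measured keratins, Krt19 made up 43.9% (39.6% to 47.7% over libraries) in the null and 26.1% (22.4% to 29.7%) in wild type. Krt18 made up 32.0% (28.2% to 35.8%) in the null and 55.7% (52.7% to 58.4%) in wild type. Krt8 made up 11.9% in the null and 11.6% in wild type. In neither genotype did the Krt18 and Krt19 ranges overlap, so the order of these 2 levels was the same in all libraries of a genotype.

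**Figure D2:**
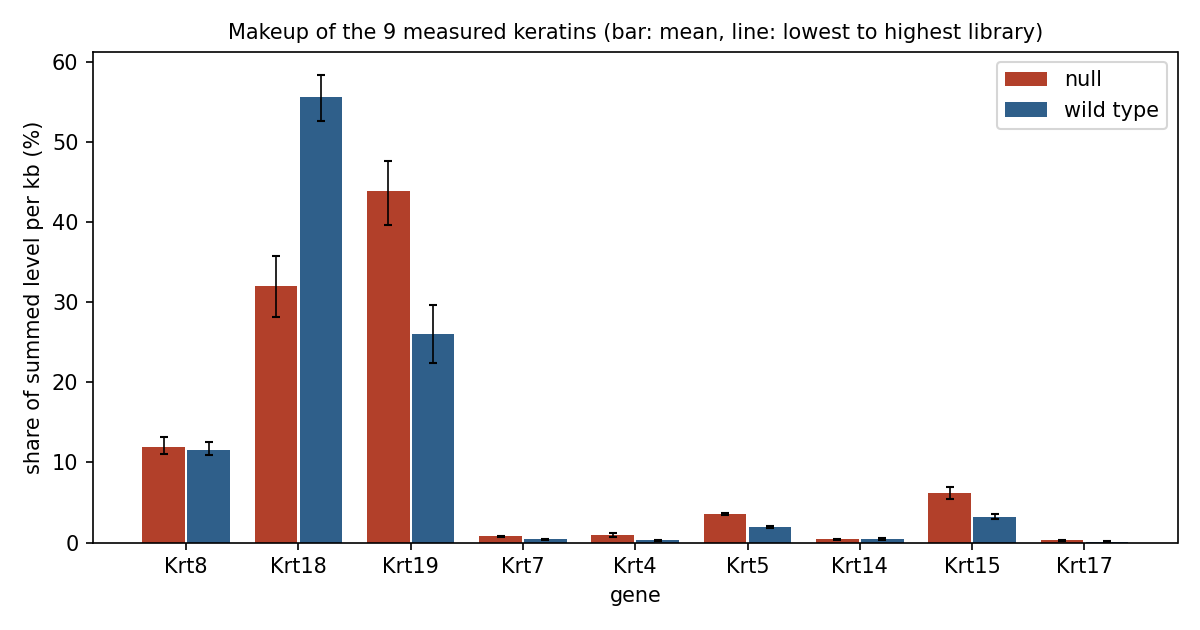
Share of the summed level per kb of coding transcript (%, y axis) of each of the 9 measured keratins (x axis) in null (left bars) and wild-type libraries (right bars), bars being means of 6 libraries and lines the lowest and highest library. Krt19 has the tallest null bar at 43.9%, and Krt18 the tallest wild-type bar at 55.7%.

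The other luminal keratins, Krt4 and Krt7, were less abundant. Krt4 (ENSMUSG00000059668, chromosome 15, 101918535 to 101924735), a type II keratin known from stratified mucosa and from proximal luminal prostate cells, had the highest difference of the 9. Krt4 had a lowest value of 8.11, a median of 8.73 and a highest value of 9.26 in null libraries, against 7.30, 7.49 and 7.80 in wild-type libraries. All null libraries were above all wild-type libraries, and null libraries 4 to 6 were higher than null libraries 1 to 3, with set means of 9.19 and 8.23. The Krt4 difference was 1.21 (SE 0.21, adjusted p = 0.000244 across libraries and 0.0968 across set means), a ratio of 2.31. It was 0.73 without null libraries 4 to 6 and 1.69 without null libraries 1 to 3, and called in both. With libraries scaled to their totals Krt4 was called across set means too (1.52, adjusted p = 0.0426), when 1941 of all genes were called in place of 662. Krt4 and Krt18 were the only keratins of the 9 whose genotypes did not overlap, 1 higher and 1 lower, against 21.5% of all genes higher and 22.7% lower.

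Krt7 (ENSMUSG00000023039, chromosome 15, 101411043 to 101430313), a type II keratin of simple and transitional epithelia, had a lowest value of 9.10, a median of 9.46 and a highest value of 9.89 in null libraries, against 8.75, 8.86 and 9.14 in wild-type libraries. Null libraries 2 and 3 lay at or just under the highest wild-type library, and the other null libraries lay above it. The Krt7 difference was 0.58 (SE 0.14, adjusted p = 0.00312 across libraries and 0.188 across set means). It was 0.27 without null libraries 4 to 6 (adjusted p = 0.0251), 0.89 without null libraries 1 to 3, and 0.36 with the transcript length trend removed, where the call was lost (adjusted p = 0.0843). The antisense gene Gm671 overlaps the span of Krt7, and the sources used here do not say whether counting used strand. No other annotated transcript, on either strand, shared a run of 100 bases with the longest coding transcript of Krt7. Other transcripts of Krt7 were not compared. The longest coding transcript of Krt7 has 4094 bases, against 1437 to 2197 bases for the other keratins examined, so its level per kb depends on which of its 5 transcripts was present.

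Among the basal keratins, Krt5 and Krt15 were the abundant ones and differed alike. Krt5 (ENSMUSG00000061527, chromosome 15, 101707070 to 101712898), the type II keratin that defines basal cells, had a lowest value of 10.57, a median of 10.75 and a highest value of 11.02 in null libraries, against 9.93, 10.19 and 10.58 in wild-type libraries. The groups overlapped by 1 library on each side, as the highest wild-type value was just above the lowest null value. The Krt5 difference was 0.57 (SE 0.12, adjusted p = 0.00144 across libraries and 0.166 across set means). It was called under each alternative that kept libraries as replicates, with values from 0.33 without wild-type libraries 1 to 3 to 0.88 with library totals. Krt5 shared 3.81% of its runs of 100 bases with other transcripts, among them Krt6a, whose highest value was 4.83.

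Krt15 (ENSMUSG00000054146, chromosome 11, 100131758 to 100135928), a type I keratin of basal layers, had a lowest value of 10.84, a median of 11.19 and a highest value of 11.55 in null libraries, against 10.21, 10.59 and 10.90 in wild-type libraries. Null libraries 1 to 3 and wild-type libraries 4 to 6 had nearly the same level, with set means of 10.87 and 10.88. The Krt15 difference was 0.61 (SE 0.18, adjusted p = 0.00859 across libraries and 0.218 across set means). It was 0.29 without null libraries 4 to 6 (adjusted p = 0.156) and 0.31 without wild-type libraries 1 to 3 (adjusted p = 0.159), and not called in either, and 0.93 without null libraries 1 to 3. Krt5 minus Krt15 was -0.41 ± 0.18 in null libraries and -0.36 ± 0.10 in wild-type libraries (SD, n = 6 each), and the ranges overlapped.

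Krt14 (ENSMUSG00000045545, chromosome 11, 100203162 to 100207548), the usual type I partner of Krt5, stood in the opposite direction. Krt14 had a lowest value of 6.86, a median of 7.25 and a highest value of 7.73 in null libraries, against 7.60, 7.91 and 8.04 in wild-type libraries. Null libraries 1 to 3 were below all wild-type libraries, while 2 of null libraries 4 to 6 lay above the lowest wild-type library. The Krt14 difference was -0.59 (SE 0.16, adjusted p = 0.0067 across libraries and 0.241 across set means). It was not called without null libraries 1 to 3 (-0.24, adjusted p = 0.0977), with library totals (-0.27, adjusted p = 0.188) or with the set as a random block (adjusted p = 0.169), and it was -0.94 without null libraries 4 to 6. Krt14 shared 2.88% of its runs of 100 bases with Krt16, which lay near the floor of the table in all libraries (at most 2.71).

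Krt5 minus Krt14 was 3.26 to 3.71 in null libraries and 1.89 to 2.98 in wild-type libraries, with means of 3.49 ± 0.21 and 2.33 ± 0.37 (SD, n = 6 each). The genotypes did not overlap in this difference, and the gap of 1.15 was larger than the spread within either. Krt15 minus Krt14 was 3.82 to 3.98 in null libraries and 2.25 to 3.29 in wild-type libraries, so both abundant basal keratins stood higher over Krt14 in the null. Per kb, Krt14 had a mean level of 6.53 in the null and 7.12 in wild type on the log2 scale, against 9.65 and 9.08 for Krt5 and 10.42 and 9.81 for Krt15.

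Krt17 (ENSMUSG00000035557, chromosome 11, 100256217 to 100261029), a type I keratin of basal and stressed or regenerating epithelium, had a lowest value of 5.63, a median of 6.58 and a highest value of 7.20 in null libraries, against 5.43, 5.68 and 6.04 in wild-type libraries. Null libraries 4 to 6 were above all others, null library 1 lay just above the wild-type values, and null libraries 2 and 3 lay among them. The Krt17 difference was 0.78 (SE 0.26, adjusted p = 0.0171 across libraries and 0.265 across set means). It was 0.21 without null libraries 4 to 6 (adjusted p = 0.284), 1.34 without null libraries 1 to 3, 0.65 without wild-type libraries 4 to 6 (adjusted p = 0.141) and 0.42 with quantile normalization (adjusted p = 0.236). With the set as a random block it was not called (adjusted p = 0.21). Krt17 minus Krt14 was -1.23 to -0.53 in null libraries and -2.58 to -1.92 in wild-type libraries, without overlap.

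Krt13 (ENSMUSG00000044041, chromosome 11, 100117327 to 100121566), the type I partner of Krt4 in stratified mucosa, did not pass the filter. Krt13 had a lowest value of 1.30, a median of 2.57 and a highest value of 3.08 in null libraries, against 1.91, 2.24 and 2.96 in wild-type libraries. These values lie in the floor of the table, where 18491 of 39179 genes had a mean under 2.5, so Krt13 was not detectable at this depth and no difference is given.

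**Figure D3:**
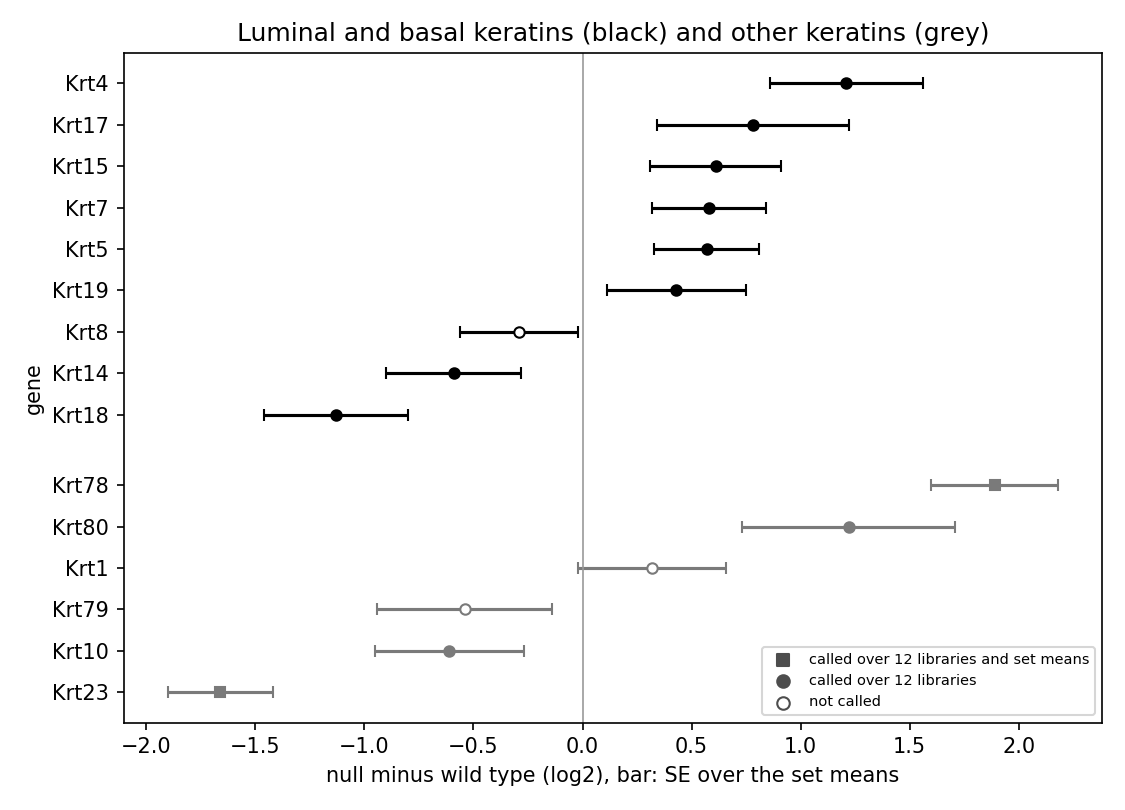
Null minus wild type (log2, x axis) for the 9 tested luminal and basal keratins (black, above) and the 6 other tested keratins (grey, below), with bars of 1 SE across set means, squares for genes called across libraries and the set means, filled circles for genes called across libraries alone and open circles for genes not called. Krt4 at 1.21 and Krt18 at -1.13 are the extremes of the black points, and Krt78 and Krt23 are the squares. The sign of Krt8 turns with library totals and quantile normalization.

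Luminal and basal keratins were also set against each other. Krt5 minus Krt8 was -1.66 to -1.44 in null libraries and -2.50 to -2.33 in wild-type libraries, with means of -1.56 ± 0.10 and -2.42 ± 0.08 (SD, n = 6 each). The ranges did not overlap, and Krt5 thus stood 0.85 higher against Krt8 in the null. This did not hold for every basal and luminal pair. The genotype difference of Krt5, 0.57, was above those of Krt18 (-1.13) and Krt19 (0.43), about that of Krt7 (0.58) and below that of Krt4 (1.21). The genotype difference of Krt14, -0.59, was below that of Krt8, -0.29. That order did not hold without wild-type libraries 1 to 3, where the difference was -0.56 for Krt14 and -0.58 for Krt8. Krt4 minus Krt8 was -4.11 to -3.09 in null libraries and -5.43 to -4.87 in wild-type libraries. The summed level of the 5 luminal keratins was 14.78 to 15.19 in null libraries and 15.09 to 15.62 in wild-type libraries, and that of the 4 basal keratins was 11.78 to 12.41 in null libraries and 11.27 to 11.84 in wild-type libraries (log2 of the summed linear values). Both sums overlapped between the genotypes. The 9 keratins together took 0.185% to 0.263% of the linear total in null libraries and 0.186% to 0.247% in wild-type libraries.

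**Figure D4:**
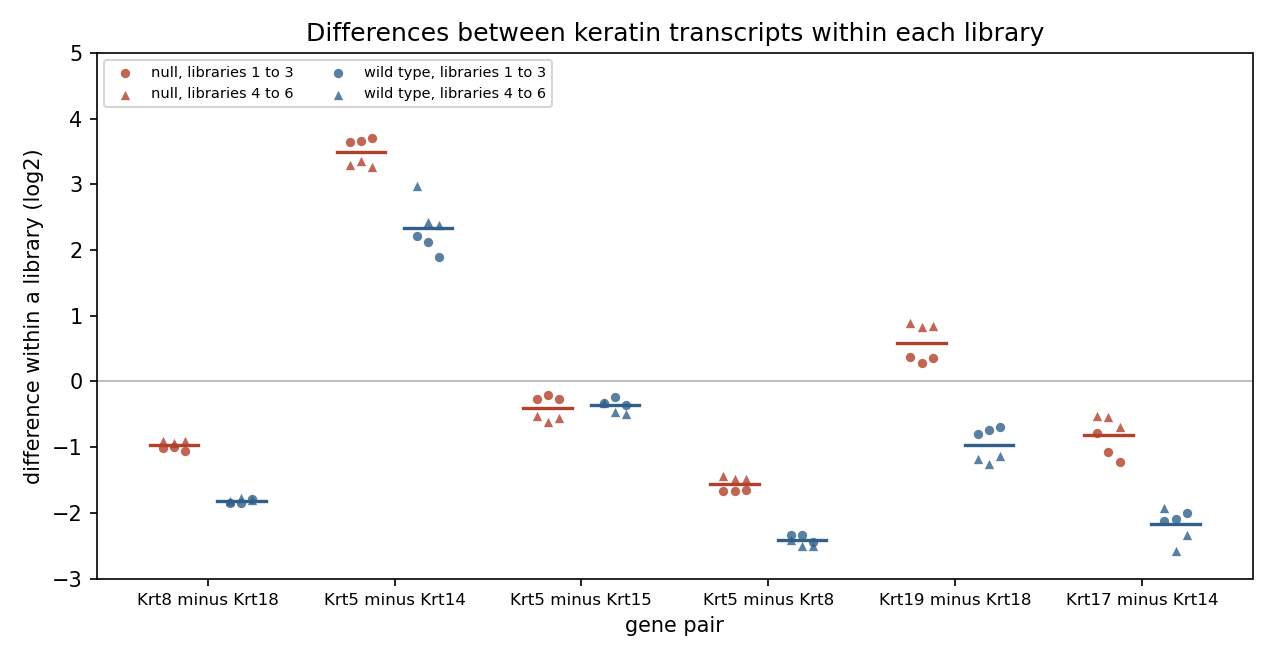
Difference between the log2 values of 2 keratins within a library (y axis) for 6 gene pairs (x axis) in null libraries, left in each pair, and wild-type libraries, right, with circles for libraries 1 to 3, triangles for libraries 4 to 6 and a line at the genotype mean. The genotypes do not overlap in 5 of the pairs and overlap in Krt5 minus Krt15. Of all genes tested, 44.2% do not overlap as single genes, and no share over gene pairs was computed. Krt19 minus Krt18, Krt5 minus Krt14 and Krt17 minus Krt14 each set a gene called higher across libraries against a gene called lower.

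The sets of a genotype differed in these genes as well. In the null, libraries 4 to 6 were higher than libraries 1 to 3 for all 9 tested keratins, by 0.05 for Krt18 to 1.13 for Krt17, with 0.96 for Krt4 and 0.70 for Krt14. In wild type, libraries 4 to 6 were higher for Krt8 (0.58), Krt18 (0.54), Krt5 (0.48) and Krt15 (0.60), and for Krt14 and Krt17 they were lower, by -0.05 and -0.26. The sets were found from the data and are not groups of the study, so these differences are given with no test.

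Of the 44 other genes with a Krt symbol, 6 could be tested, and 35 of the remaining 38 stayed under a value of 4 in every library. Over the 12 libraries 2 of the 6 were called higher and 2 lower, a share near the 65.9% of all genes tested. Across set means 2 were called, Krt78 and Krt23, where 4.09% of all genes were. Krt78, a type II keratin gene, was at 8.41 to 9.08 in null libraries and 6.51 to 7.17 in wild-type libraries, and it rose by 1.89 (SE 0.29 across set means, adjusted p = 0.0265 across set means). Krt23, a type I keratin gene, was at 8.12 ± 0.25 in the null and 9.79 ± 0.18 in wild type (SD, n = 6 each), and it fell by 1.66 (SE 0.24 across set means, adjusted p = 0.0229 across set means). Neither overlapped between the genotypes. Krt80 was at 1.22 and Krt10 at -0.61, called across libraries and not across set means (adjusted p = 0.155 and 0.256). Krt1 (0.32) and Krt79 (-0.54) were not called.

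Genes that anchor keratin filaments or mark the same cells were taken from lists chosen with earlier results of these data known. Of 15 tested genes of desmosomes, hemidesmosomes and keratin linkers, 9 were called higher and 2 lower across libraries, where 65.9% of all genes tested were called, and 2 were higher across set means. Itgb4, on the basal list too, encodes an integrin subunit of the hemidesmosomes that basal keratins attach to. It rose by 1.40 (adjusted p = 0.0198 across set means), and Ppl, which encodes the linker periplakin, rose by 1.40 (adjusted p = 0.0464). Evpl (1.03, adjusted p = 0.055) and Plec (0.72, adjusted p = 0.1), encoding envoplakin and plectin, were called across libraries alone. The list had a median of 0.31. Of 12 tested basal genes other than keratins, 10 were called higher and 1 lower across libraries, and 3 were higher across set means, with a median of 1.07. Trp63, which encodes the basal transcription factor p63, was at 9.68 ± 0.16 in the null and 8.24 ± 0.14 in wild type (SD, n = 6 each). Of 16 luminal genes other than keratins, 6 were called higher and 7 lower across libraries and 2 were lower across set means, with a median of 0.00. The 2 were Spdef (-1.85, limma adjusted p = 0.00881 across set means) and Tmprss2 (-1.79, adjusted p = 0.0147). The summed level of the 16 luminal genes was 16.08 to 16.29 in null libraries and 16.44 to 16.57 in wild-type libraries. Luminal markers were thus present in all libraries, with a lower sum in all null libraries on the authors' normalized scale. Scaling to library totals, which moved the median difference of all genes to 0.37, was not applied to these sums. Whether their order depends on the scaling was thus not tested. A sum of linear values also weighs abundant genes most, while the median difference of the list was 0.00. All 8 proximal luminal genes were called higher across libraries and 6 across set means, with a median of 2.0. Among all genes tested, 34.1% were called higher and 31.8% lower across libraries, and 2.15% higher and 1.93% lower across set means.

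Markers of other epithelia differed too. Of all genes tested, 34.1% were called higher and 31.8% lower across libraries, and 2.15% higher and 1.93% lower across set means. Of 8 seminal vesicle genes 7 were tested and 7 called higher across libraries, 5 across set means, and their summed level was 16.83 to 21.42 in null libraries and 5.87 to 7.85 in wild-type libraries, highest in null libraries 1 to 3. The null sets did not stand in 1 order over the list. Svs2 was at 21.03 in null libraries 1 to 3 and 11.37 in null libraries 4 to 6, but Svs3a was at 11.78 and 13.65, Svs3b at 11.38 and 11.65, and Svs4 at 14.58 and 16.43. Svs1 of that list did not pass the filter. Members with a wild-type mean under the filter value of 4, such as Svs3a (3.09) and Svs3b (2.78), passed it through the null libraries. Their calls could thus only be higher. Without null libraries 1 to 3 the differences of Krt4, Krt7, Krt15, Krt17 and Krt19 were larger, at 1.69, 0.89, 0.93, 1.34 and 0.71, and that of Krt5 was 0.73. Krt18 was then at -1.11, Krt14 at -0.24 and Krt8 at -0.21. Of 6 genes of the urothelium, the lining of the bladder and urethra, 3 were tested and 2 called higher across libraries and 0 across set means. Their summed level was 13.15 to 14.30 in null libraries and 12.99 to 13.13 in wild-type libraries, highest in null libraries 4 to 6, where Krt4, Krt5, Krt7, Krt15, Krt17 and Krt19 were highest too. Without null libraries 4 to 6 the differences of these 6 keratins were 0.73, 0.40, 0.27, 0.29, 0.21 and 0.14. Upk3a, Krt20 and Grhl3 of that list did not pass the filter, and their means were at most 3.42 in either genotype. Of 14 genes of squamous epithelium 7 were tested, 4 called higher and 2 lower across libraries and 1 higher across set means, and their summed level was 10.14 to 10.79 in null libraries and 9.16 to 9.47 in wild-type libraries. That sum too was highest in null libraries 4 to 6 (10.77, against 10.18 in null libraries 1 to 3). Sprr1a (9.52 in the null and 6.94 in wild type) gave the squamous call across set means, and Sprr1b, Sprr3, Cnfn and Calm4 lay in the floor. Cdsn, called higher across libraries, had a wild-type mean of 3.53 and also passed the filter through the null libraries. The part of these cell types in the keratin values was not tested.

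Among the remaining lists, 2 of 8 vas deferens and epididymis genes were tested and both called higher across libraries, with a summed level of 8.45 to 15.88 in null libraries and 7.45 to 8.69 in wild-type libraries. The sum was high in null libraries 1 to 3 (a mean of 15.83), while null libraries 4 to 6 (8.51) lay among the wild-type sets (8.60 and 7.63). Akr1b7 of this list had a wild-type mean of 2.55 and passed the filter through the null libraries. Its call could thus only be higher. All 5 mesothelium genes were tested and 4 called higher, with a summed level of 8.29 to 9.23 in null libraries and 7.13 to 8.06 in wild-type libraries. Lrrn4, among those called, had a wild-type mean of 3.61 and also passed the filter through the null libraries. Smooth muscle genes had a summed level of 16.13 to 16.71 in null libraries and 16.48 to 16.81 in wild-type libraries, with 4 of 6 called lower across libraries. Fibroblast genes (6 of 6 called higher), endothelium genes (4 of 5) and leukocyte genes (3 of 6) had summed levels of 13.80 to 14.10, 10.47 to 11.04 and 11.36 to 12.19 in null libraries, against 13.34 to 13.63, 9.79 to 9.99 and 11.06 to 11.31 in wild-type libraries. None of these lists had a call across set means. The shares over all genes tested were 34.1% higher and 31.8% lower across libraries, and 4.09% in all across set means. The leukocyte sum was highest in null libraries 4 to 6 (12.18, against 11.40 in null libraries 1 to 3). Mesothelium, fibroblast and endothelium sums were highest in null libraries 1 to 3, and the smooth muscle sum in wild-type libraries 4 to 6. The part of these lists in the keratin values was not tested either.

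**Figure D5:**
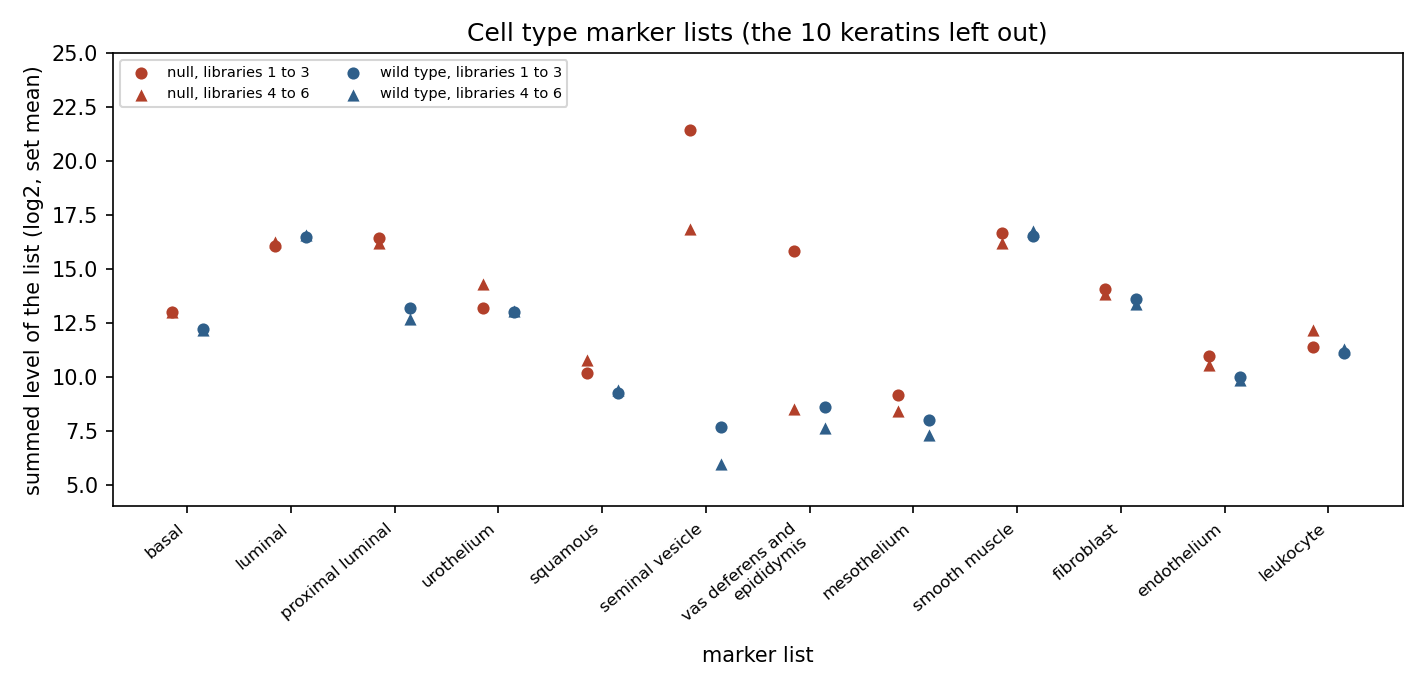
Summed level (log2 of the summed linear values, set means, y axis) of 12 marker lists (x axis) in the null sets, left, and the wild-type sets, right, with circles for libraries 1 to 3 and triangles for libraries 4 to 6. Seminal vesicle genes are at 21.41 and 16.84 in the null sets and at 7.66 and 5.95 in the wild-type sets, and urothelium genes are highest in null libraries 4 to 6 at 14.29.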

How the data were processed

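RNA was selected for poly-A, prepared with an Illumina TruSeq RNA kit and sequenced on a HiSeq2000, per the labels' protocols. The submitters' processing notes list, without roles, the builds GRCm38.p2 and mm9 and the tools DESeq, Cufflinks, TopHat and CASAVA 1.8.2. Values in the deposited table are log2 and were normalized between libraries by the authors. Values run from -0.28 to 21.24. The treatment of multiply mapped reads and strand is not stated there. The deleted gene itself is not reported here.

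Symbols, positions and transcripts come from GENCODE M21 (GRCm38), and 37607 of 39179 IDs matched. Genes at 4 or above in no fewer than 6 libraries were tested with limma 3.58.1 (R 4.3.3, trend, two-sided, Benjamini-Hochberg over 16197 genes), across libraries and over 4 set means from clustering each genotype into 2 sets. The fits were also run on simulated data that held no difference between sets of a genotype. That run therefore cannot show how the fit across libraries behaves where such sets exist. Reads were recovered with Python 3.11.15 by finding, per library, a factor that makes linear values from 2500 to 6000 whole, which held within 0.1 for 100% of them and for 96.4% to 99.3% of values from there to 60000. The reads of Krt8, Krt18 and Krt19 may be off by a constant of a few reads. Counting errors are 100 divided by the square root of the reads, in percent, and cover counting only. A shared run is an exact match of 100 bases, the read length in the labels, and levels per kb use the longest coding transcript.

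The genes, lists and tests were chosen with earlier results of these data known. All 10 keratins are named, and of the other keratins those called in both fits with the rest of the tested ones. Of each other list at most 4 genes with the lowest p across set means are named. Exceptions are the untested genes, Svs2, Des, Gfap, Lmna, Nefh, Nefl, Nefm and Prph, which were named after their values were seen. Alternatives were other filters, scalings, thresholds, library weights, no variance trend, a damped log2 scale, a random block for the set, leaving out libraries or sets, and removal of the length trend, which across set means was added after seeing the data.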

Additional observations from a re-analysis of the deposited data

Results flagged for a closer look

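Dixon's gap ratio was computed in 100 groups of 6 values. Chance alone flags about 1 in 20 groups whose values are not split into sets. It passed the critical value in 2. Krt1 in the null had a ratio of 0.71, as null library 3 was at 5.36 and the next library at 5.71. Lor, a squamous marker gene, had a ratio of 0.799 in the null, as null library 2 was at 5.54 and the next library at 6.25. None of the 10 luminal and basal keratins was flagged. A gap between the sets of 3 widens the range of the 6 values and lowers the ratio. The lack of a flag thus does not show that no library stood out.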

How the results depend on the processing

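Leaving out any 1 library kept the direction of all 9 tested keratins and the calls of 8, and Krt8 came to be called without wild-type library 1, 2 or 3. Of all genes 10670 were called across libraries, 662 with set means as replicates and 5052 with the set as a random block. Of the keratins 8 were called across libraries, 0 with set means as replicates, 5 with the set as a random block and 5 without null libraries 4 to 6, where the calls over all genes were 11272. With library totals the calls across set means were 1941 of all genes in place of 662 and 1 of the keratins in place of 0. The Krt8 difference of -0.29 turned to 0.027 with library totals, 0.022 with quantile normalization and 0.002 without wild-type libraries 4 to 6, and the cause was not tested. The median difference of all genes tested, 0.05, was 0.37 with library totals, 0.20 without the 50 most abundant genes in the totals and 0.13 with upper-quartile centring. Exact permutation tests across libraries (two-sided) gave p = 0.00216 for Krt18 and Krt4, the smallest p that 6 against 6 allows, and p = 0.0909 for Krt8. No paired analysis was possible because the labels give no replicate numbers shared by the genotypes. Low values do not follow the read scale, so Krt13 could not be measured.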

Other observations

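Among 11 tested intermediate filament genes other than keratins, Nefh, Nefm, Nefl and Prph were higher in null libraries 1 to 3 than in the other sets. Nefh, which encodes the heavy neurofilament chain, had a mean of 13.34 in null libraries 1 to 3 and 4.33 in null libraries 4 to 6, against 4.06 and 4.43 in the wild-type sets. Nefm, the medium chain, was at 7.96 and 3.74 in the null sets and at 3.92 and 4.41 in the wild-type sets. Nefl, the light chain, was at 7.86 and 4.21 in the null sets and at 4.24 and 4.48 in the wild-type sets, and Prph, encoding peripherin, was at 9.47 and 6.26 in the null sets and at 6.95 and 7.30 in the wild-type sets. These 4 genes were chosen after their values were seen, and they were not the only ones highest in null libraries 1 to 3. Nes was at 8.02 and 6.94 in the null sets and at 6.31 and 6.55 in the wild-type sets. Synm was at 12.46 and 11.46 in the null sets and at 11.43 and 10.78 in the wild-type sets. Gfap, Vim and the untested Ina were highest there too. Des, Lmna and Lmnb2 were not, with Des at 13.10 and 13.12 and Lmna at 11.25 and 11.65 in the null sets. The vas deferens and epididymis sum was at 15.83 in null libraries 1 to 3 and 8.51 in null libraries 4 to 6, against 8.60 and 7.63 in the wild-type sets. The seminal vesicle sum was at 21.41 and 16.84 in the null sets and at 7.66 and 5.95 in the wild-type sets. The part of either in the filament values was not tested. Of the 11 genes, 6 were called higher and 2 lower across libraries, near the 65.9% of all genes tested, and limma called 0 across set means, with 1, Nes, at an unadjusted p under 0.05 (adjusted p = 0.151 to 0.604 across set means). Vim, the filament gene of mesenchymal cells, was at 11.25 ± 0.09 in the null and 10.87 ± 0.14 in wild type (SD, n = 6 each, limma adjusted p = 0.229 across set means).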
